A study of Mus musculus with 6 samples.

Results

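The mitochondrial carrier family Slc25 was followed in samples described as primary myoblasts of WT and Rev-/- mice. Its members were taken as every gene whose symbol on the array platform is Slc25a followed by a number, and there were 46 of them, carried by 76 probes. Each gene was read from its brightest probe, the one with the highest mean over the 6 arrays, and 20 of the 46 had more than 1 probe. The study hybridized RNA of primary myoblasts, the cultured precursors of muscle fibres, to Illumina mouse whole genome bead arrays, 1 RNA sample per array. The WT group had 3 arrays from mice with an intact Rev-erbα gene and the Rev-/- group had 3 arrays from mice in which Rev-erbα, encoded by Nr1d1, was deleted in every tissue from 1 targeted embryonic stem cell clone. All 6 samples were labelled as C57BL/6, male and 6 weeks old, although the methods of the paper give a younger age for isolation, and the cells were kept in medium with 20% fetal bovine serum and 5 ng/ml bFGF, a growth factor. The samples are described as independent, but nothing says that each came from a separate mouse, so the spread measured here is that between samples.

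Slc25 carriers are small proteins of the inner mitochondrial membrane, which exchange one solute of the matrix for another of the cytosol. They supply oxidative phosphorylation with ADP and phosphate, bring fatty acids, citrate, amino acids and nucleotides across the membrane, and carry the iron and glycine used for haem. In muscle the ADP/ATP carriers, the phosphate carrier, the carnitine carrier and the malate-aspartate shuttle serve contraction, while other members are known from liver, brain, testis or red cell precursors.

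Several libraries did not follow their labels. Nr1d1 was above background on WT 3, Rev-/- 1 and Rev-/- 3 only, with log2 intensities of 6.59, 6.54 and 7.22 on WT 1 to 3 and of 7.01, 6.51 and 7.14 on Rev-/- 1 to 3, and whether its probe lies in the deleted part was not analysed here. Xist, which coats an inactive X, was above background on 5 arrays, although all 6 are labelled male, and at background on Rev-/- 1. Eif2s3y, a Y-linked gene, was at 6.72, 8.40 and 8.57 on WT 1 to 3 and at 9.09, 8.27 and 6.82 on Rev-/- 1 to 3, so that WT 2, WT 3 and Rev-/- 2 carried both transcripts clearly, and whether labels were exchanged or animals pooled was not tested. Rev-/- 1 also stood apart over all kept probes, with a mean correlation with the other arrays of 0.978 against at least 0.988 for the rest, and it had the brightest neutrophil and bone transcripts. Pax7 and Myf5, which define satellite cells and early myoblasts, were above background on 0 arrays, whereas Myod1, Myog, Des and Cdh15, the other 4 of the 6 satellite cell and myoblast markers, and the 6 measured genes of differentiated muscle were above it on all 6. Hba-a1, a haemoglobin chain, ran from 14.22 to 14.60 over the arrays, and Adipoq, a fat cell hormone, from 8.53 to 10.71. Transcripts of muscle, red cells and fat cells were thus measured in samples described as primary myoblasts. Which cells the samples held was not tested, so carrier levels cannot be read as those of growing myoblasts alone. Directions below are between arrays as labelled, and fold changes that Rev-/- 1 moves by over 1.5 times are also given without it where a statement turns on them.

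Of the 46 carriers, 27 were above background on all 6 arrays, 11 on 1 to 5 arrays and 8 on none. Background was taken on each array as the 95th percentile of the intensities around the peak of dim probes. The 27 made up 58.7% of the family, against 51.8% of all genes with a probe. Intensities of different probes are not on a common scale, so carriers are compared here between arrays and not with each other. The 8 carriers at background on every array were Slc25a13, Slc25a21, Slc25a31, Slc25a40, Slc25a41, Slc25a43, Slc25a48 and Slc25a54. A probe at background shows that no signal was measured with it and not that the transcript was missing.

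**Figure D1:**
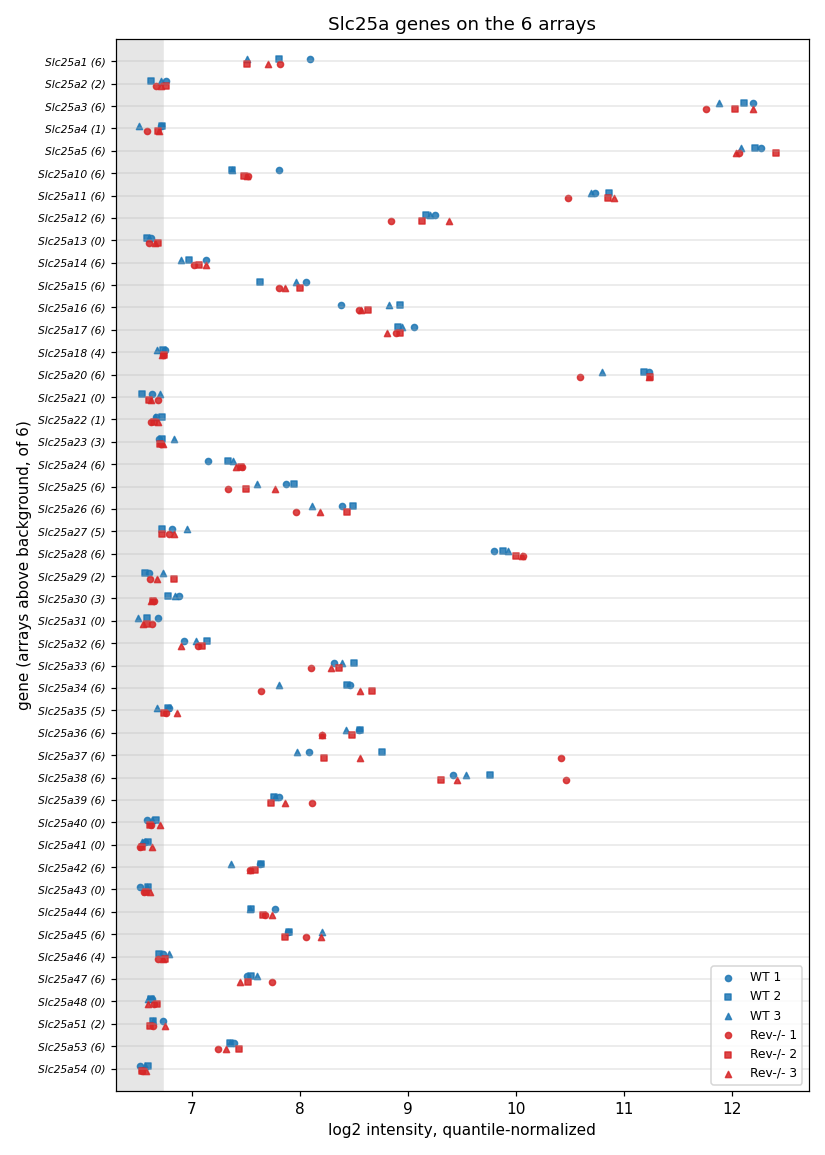
Log2 intensity (x axis, quantile-normalized) of each of the 46 Slc25a genes (y axis) on the 3 WT arrays in blue and the 3 Rev-/- arrays in red, with the symbol marking the replicate number. The number in brackets counts the arrays above background, the grey area ends at the highest background limit, 6.73, and Slc25a37 and Slc25a38 have 1 red point, Rev-/- 1, far to the right of their other 5.

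Rev-erbα acts as a repressor on DNA that carries the sequence AGGTCA next to an AT-rich stretch, so the members whose promoter holds these 6 letters are shown. In RefSeq promoters of build GRCm38.p6, 36 members on chromosomes used here were matched, with 46 promoters, and searched over the 250 bases before each annotated start, on both strands, leaving out the AT-rich stretch. A match was found in 4 of 46 promoters, or 8.7%, against 14% of all 32851 promoters searched, which were not limited to those chromosomes. The matches belong to Slc25a34 (chr4:141623918-141623983, minus strand), Slc25a39 (chr11:102407654-102407719, minus strand), Slc25a45 (chr19:5877742-5877807, plus strand) and Slc25a47 (chr12:108850946-108851011, plus strand). They lie 113, 166, 44 and 147 bases before the annotated start searched, in the same order. For Slc25a39 and Slc25a47 the match lies inside the annotated span of the gene, 102402969 to 102408675 and 108849833 to 108856815, so that start is an internal one. Each is printed 5′ to 3′ along its gene with the match in capitals, which reads TGACCT where it lies on the other strand.
Slc25a34: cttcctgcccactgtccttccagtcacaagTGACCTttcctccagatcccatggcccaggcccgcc
Slc25a39: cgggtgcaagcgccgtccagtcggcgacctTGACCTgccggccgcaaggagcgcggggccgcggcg
Slc25a45: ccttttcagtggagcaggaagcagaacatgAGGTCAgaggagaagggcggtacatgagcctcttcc
Slc25a47: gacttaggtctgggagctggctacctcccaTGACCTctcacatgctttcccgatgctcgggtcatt
A match of letters is a description of the sequence and not a binding site. In these 4 genes the WT and Rev-/- arrays overlapped, and the log2 fold changes, Rev-/- minus WT, were 0.05 for Slc25a34, 0.12 for Slc25a39, 0.04 for Slc25a45 and 0.01 for Slc25a47. All 4 were below 0 with the array medians aligned and on the deposited values. Those scalings moved the median of all genes to −0.11 and −0.15, with 80.8% and 90.9% of all genes lower. Without Rev-/- 1 the fold changes of the 4 genes were 0.38, 0.018, 0.028 and −0.073 in the same order. The letters GATAA, searched in the same promoters, were found in 7 of 46, or 15.2%, against 22.6% of all promoters. A share below that of all promoters was thus not particular to AGGTCA.

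Carriers of ADP, ATP and phosphate feed ATP synthase. Slc25a5, the ADP/ATP carrier of growing cells, had log2 intensities of 12.27, 12.21 and 12.08 on WT 1 to 3 and of 12.06, 12.40 and 12.04 on Rev-/- 1 to 3. Slc25a3, the phosphate carrier, was at 12.19, 12.11 and 11.87 on WT 1 to 3 and at 11.76, 12.02 and 12.19 on Rev-/- 1 to 3. In both genes the arrays of the labels overlapped. Slc25a4, the ADP/ATP carrier of heart and skeletal muscle, was above background on WT 2 alone, and its only probe was at 6.72, 6.72 and 6.51 on WT 1 to 3 and at 6.58, 6.69 and 6.69 on Rev-/- 1 to 3. On the same arrays Ckm, the muscle creatine kinase, ran from 13.88 to 14.13, so the muscle form of the carrier lay at or just past the background limit on arrays with bright muscle transcripts, and whether its probe measures the transcript was not tested. Slc25a31, the ADP/ATP carrier of testis, was at background on all 6 arrays with both of its probes, at 6.69, 6.59 and 6.5 on WT 1 to 3 and at 6.63, 6.58 and 6.55 on Rev-/- 1 to 3 with the brighter one, as were the testis markers Prm1 and Tnp2. The other testis markers were above background on 2 arrays each, Tnp1 on WT 3 and Rev-/- 1 and Akap4 on WT 1 and Rev-/- 2.

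Other carriers that bring fuel or reducing equivalents across the membrane were measured on all arrays. Slc25a11, the oxoglutarate/malate carrier, was at 10.72, 10.86 and 10.69 on WT 1 to 3 and at 10.48, 10.85 and 10.91 on Rev-/- 1 to 3. Slc25a12, the aspartate/glutamate carrier of muscle and brain, was at 9.25, 9.16 and 9.20 on WT 1 to 3 and at 8.84, 9.13 and 9.38 on Rev-/- 1 to 3. Slc25a20, which takes acylcarnitines in for fatty acid oxidation, was at 11.23, 11.18 and 10.79 on WT 1 to 3 and at 10.59, 11.24 and 11.23 on Rev-/- 1 to 3. In each of these 3 genes Rev-/- 1 was the lowest array, and Rev-/- 3 lay at or above the middle of the WT arrays. Slc25a1, the citrate carrier that exports carbon for lipid synthesis, was at 8.09, 7.80 and 7.51 on WT 1 to 3 and at 7.81, 7.51 and 7.70 on Rev-/- 1 to 3. Its highest array was WT 1, which was also the highest for Adipoq, the fat cell hormone adiponectin, at 10.71 against 8.53 to 10.22 on the other 5. Slc25a10, the dicarboxylate carrier of liver and fat, followed the same array, at 7.80, 7.37 and 7.37 on WT 1 to 3 and at 7.52, 7.48 and 7.51 on Rev-/- 1 to 3. All 3 measured fat cell markers above background, Adipoq, Plin1 and Cidec, were highest on WT 1, while Fabp4 was at background, and their part in the levels of the carriers was not tested.

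Members known from liver differed in whether they were measured at all. Slc25a15, the ornithine carrier of the urea cycle, was above background on all 6 arrays, at 8.05, 7.63 and 7.96 on WT 1 to 3 and at 7.80, 8.0 and 7.86 on Rev-/- 1 to 3. Slc25a47, a carrier found mainly in liver, was also above background on all 6, at 7.51, 7.55 and 7.60 on WT 1 to 3 and at 7.74, 7.52 and 7.45 on Rev-/- 1 to 3, with Rev-/- 1 the highest. Slc25a13, the liver aspartate/glutamate carrier citrin, was at background on every array, and Slc25a2, a second ornithine carrier, was above it on WT 1 and Rev-/- 2 only. Values for Slc25a13 were 6.62, 6.58 and 6.60 on WT 1 to 3 and 6.60, 6.68 and 6.66 on Rev-/- 1 to 3, and those of Slc25a2 were 6.75, 6.62 and 6.71 on WT 1 to 3 and 6.66, 6.76 and 6.71 on Rev-/- 1 to 3. Of the 5 liver markers, 3 were above background on at least 3 arrays, and Alb, which encodes albumin, on none. The score of those 3, the median of their log2 intensities relative to each gene's mean, ran from −0.65 to 0.17 on the other 5 arrays and was 1.97 on Rev-/- 1, and its part in the level of Slc25a47 was not tested.

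Members known from brain, kidney and testis lay close to the background limit. Slc25a14, an uncoupling protein relative of brain, was above it on all 6 arrays, at 7.13, 6.98 and 6.90 on WT 1 to 3 and at 7.02, 7.06 and 7.13 on Rev-/- 1 to 3. Slc25a27, another such relative of brain, was at 6.82, 6.72 and 6.95 on WT 1 to 3 and at 6.78, 6.72 and 6.83 on Rev-/- 1 to 3, above background on 5 arrays. Neither sets the labels apart. Slc25a18, a glutamate carrier, was above background on 4 arrays, at 6.75, 6.73 and 6.68 on WT 1 to 3 and at 6.73, 6.74 and 6.72 on Rev-/- 1 to 3. Slc25a22, the other glutamate carrier, was above it on WT 2 alone, at 6.66, 6.72 and 6.66 on WT 1 to 3 and at 6.62, 6.64 and 6.69 on Rev-/- 1 to 3. Among the brain markers, Snap25 and Syt1 were at background on all arrays, Gfap was above it on 1 array and Mbp on all 6. Slc25a41, a testis member, was never above background, at 6.56, 6.59 and 6.53 on WT 1 to 3 and at 6.51, 6.54 and 6.63 on Rev-/- 1 to 3. Slc25a34, an orphan carrier found in muscle, was far above the limit and uneven between arrays, at 8.46, 8.44 and 7.80 on WT 1 to 3 and at 7.64, 8.66 and 8.56 on Rev-/- 1 to 3, so that WT 3 and Rev-/- 1 were low and 2 arrays of each label were high. Of the 6 measured genes of differentiated muscle, the score ran from −0.03 to 0.07 over the 6 arrays. Most of these genes lay near the top of the quantile-normalized scale, so the score cannot show whether muscle content was even.

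Carriers near the limit were found in other roles too. Slc25a23, a calcium-regulated ATP-Mg/phosphate carrier, was at 6.69, 6.72 and 6.83 on WT 1 to 3 and at 6.71, 6.70 and 6.73 on Rev-/- 1 to 3, above background on 3 arrays. Slc25a29, a carrier of basic amino acids, was at 6.60, 6.56 and 6.73 on WT 1 to 3 and at 6.61, 6.83 and 6.68 on Rev-/- 1 to 3, above background on WT 3 and Rev-/- 2. Both labels thus held arrays with and without signal. Slc25a35, an orphan carrier, was at 6.78, 6.78 and 6.67 on WT 1 to 3 and at 6.76, 6.74 and 6.86 on Rev-/- 1 to 3, above background on 5 arrays. Slc25a46, an outer membrane protein that shapes mitochondria, was at 6.73, 6.69 and 6.79 on WT 1 to 3 and at 6.69, 6.75 and 6.73 on Rev-/- 1 to 3, above background on 4. Slc25a51, the NAD carrier, was at 6.73, 6.64 and 6.64 on WT 1 to 3 and at 6.64, 6.61 and 6.75 on Rev-/- 1 to 3, above background on WT 1 and Rev-/- 3. In none of these 5 did detection follow the labels. Slc25a30, an uncoupling protein relative of kidney, was the member whose detection followed the labels, close to the limit at 6.78 to 6.88 on the WT arrays. The share of all genes with such a pattern was not counted, so it is no support for a difference.

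Between the labels, 0 of the 33 carriers tested passed limma's adjusted p of 0.05 together with a 1.5-fold change, and 0% of the 11624 genes tested did. Testing was done where a probe was above background on at least 3 arrays, and the smallest adjusted p over all probes was 0.997. Before adjustment, p was 0.05 or less for 2 carriers, 1 in each direction, which is 6.06% of the 33, against 3.17% of all genes tested. In 3 carriers, or 9.09%, the arrays of the labels did not overlap, against 8.1% of all genes tested, 2 of them with the Rev-/- arrays higher, as in 3.54% of all genes, and 1 with them lower, as in 4.57%. The share of 9.09% lies near that of all genes. Slc25a30 is in both counts and reached the test only through the WT arrays, where it was high. The median log2 fold change of the 33 was −0.02 and that of all genes tested −0.01, with 14 carriers higher and 19 lower on the Rev-/- arrays. With the array medians aligned 28 were lower, when 80.8% of all genes were, and on the deposited values 31 were, when 90.9% of all genes were. The 95% interval lay within 1.5-fold in either direction for 30 of the 33 carriers, against 94.8% of all genes tested, and the exceptions were Slc25a34, Slc25a37 and Slc25a38.

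**Figure D2:**
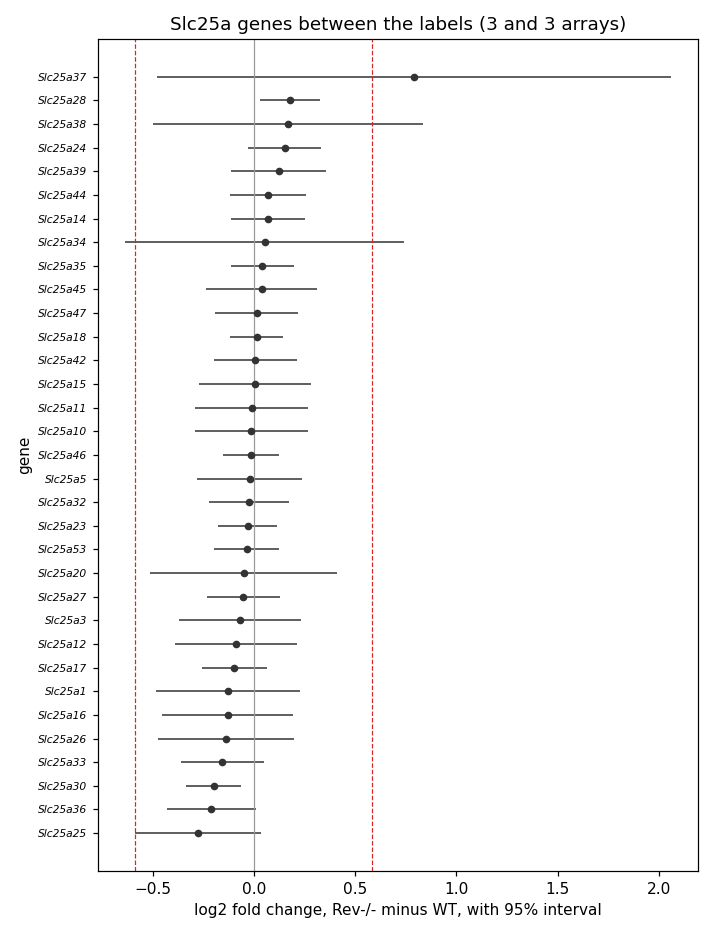
Log2 fold change (x axis, Rev-/- minus WT, 3 arrays each) of the 33 Slc25a genes tested (y axis), with bars for the 95% interval of the limma fit and dashed lines at 1.5-fold. Points run from −0.27 for Slc25a25 to 0.79 for Slc25a37, and 30 of the 33 intervals lie between the dashed lines.

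The non-overlapping carriers were Slc25a28, Slc25a24 and Slc25a30. Slc25a28, mitoferrin-2, which brings iron into mitochondria of most tissues, was at 9.79, 9.87 and 9.93 on WT 1 to 3 and at 10.07, 10.001 and 10.06 on Rev-/- 1 to 3. Every Rev-/- array lay above every WT array, and the log2 fold change was 0.18 (SE 0.06, unadjusted p = 0.026 and adjusted p = 0.997 with limma, exact permutation p = 0.1, 2-sided), but it was −0.06 with the array medians aligned and −0.11 on the deposited values. Those scalings move the median of all genes to −0.11 and −0.15, so that Slc25a28 lay above that median under both. Slc25a24, a calcium-regulated ATP-Mg/phosphate carrier, was at 7.15, 7.33 and 7.38 on WT 1 to 3 and at 7.46, 7.45 and 7.41 on Rev-/- 1 to 3, with a log2 fold change of 0.15 (SE 0.08), which was 0.079 without WT 1, 0.078 with the array medians aligned and 0.031 on the deposited values. A second kept probe of Slc25a24 differed in the same direction, by 0.17, with overlapping arrays. Slc25a30 was above background on all 3 WT arrays, at 6.88, 6.78 and 6.84, and on none of the Rev-/- arrays, at 6.65, 6.64 and 6.62. Against the background limit it was at least 1.08-fold higher on the WT arrays (adjusted p = 0.997 with limma). Since it passed the filter of 3 arrays only through the WT group, it had to differ, and its unadjusted p and lack of overlap are no support for a difference. With 3 arrays against 3, an exact permutation test cannot give a p below 0.1.

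The other carriers with the smallest p were lower on the Rev-/- arrays without parting from WT. Slc25a36, a pyrimidine nucleotide carrier, was at 8.55, 8.55 and 8.42 on WT 1 to 3 and at 8.20, 8.48 and 8.20 on Rev-/- 1 to 3, a log2 fold change of −0.21 (SE 0.09). Its 2 dimmer probes, both kept, gave −0.15 each, and for 1 of them the arrays of the labels did not overlap, at 7.10, 7.19 and 7.15 against 7.01, 7.0 and 6.98. Slc25a33, a second pyrimidine nucleotide carrier, was at 8.32, 8.5 and 8.39 on WT 1 to 3 and at 8.10, 8.36 and 8.28 on Rev-/- 1 to 3, a difference of −0.16 (SE 0.09). Slc25a25, a calcium-regulated ATP-Mg/phosphate carrier, was at 7.87, 7.94 and 7.60 on WT 1 to 3 and at 7.33, 7.5 and 7.77 on Rev-/- 1 to 3, a difference of −0.27 (SE 0.13). None of these 3 was called, with an adjusted p of 0.997 each. Without Rev-/- 1 the differences were −0.17 for Slc25a36, −0.085 for Slc25a33 and −0.18 for Slc25a25. With the array medians aligned they were −0.38, −0.33 and −0.38, and on the deposited values −0.43, −0.37 and −0.43 in the same order. Slc25a24 and Slc25a25, which carry the same solutes, had fold changes of opposite sign.

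By role, the 11 tested carriers of nucleotides and cofactors had a median log2 fold change of −0.10, with 9 lower and 2 higher, when 52.2% of all genes tested were lower. The 8 tested carriers of amino acids and carnitine had a median of 0.01, the 6 of phosphate and organic acids of −0.01, the 3 uncoupling protein relatives of −0.05 and the 4 of iron, glutathione and the outer membrane of 0.15. Without Rev-/- 1 these medians were −0.045 for nucleotides and cofactors, 0.038 for amino acids and carnitine, 0.052 for phosphate and organic acids, −0.055 for the uncoupling protein relatives and 0.067 for iron, glutathione and the outer membrane. With the array medians aligned they were −0.31, −0.097, −0.18, −0.060 and −0.012 in the same order. All of these were below 0, but so was the median of all genes, at −0.11, with 80.8% of all genes lower. Nucleotides and cofactors and phosphate and organic acids lay below that median, and the other roles given here above it. Among the lower nucleotide and cofactor carriers were Slc25a16, a coenzyme A carrier, at −0.13 (SE 0.14), Slc25a26, the S-adenosylmethionine carrier, at −0.14 (SE 0.14) and −0.024 without Rev-/- 1, and Slc25a17, a peroxisomal carrier of cofactors, at −0.10 (SE 0.07). Each is within 1.5-fold over its 95% interval. In 11 carriers with more than 1 kept probe, 11 of the 14 further probes gave a fold change of the same sign as the brightest, and Slc25a15, Slc25a20 and Slc25a34 held the 3 that did not.

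The spread over single arrays was set beside that of all genes. It was not set against the fold changes, since a range over all arrays cannot be smaller than a difference of label means. Over the 6 arrays, 3 of the 33 carriers, Slc25a37, Slc25a38 and Slc25a34, spanned at least 1 on the log2 scale, 9.09% against 2.05% of all genes tested. The carriers that an array held at 0.5 or more from the median of the other 5 were 4 on Rev-/- 1, 2 on WT 3, 1 on WT 2 and 0 on the other 3. Rev-/- 1 was the lowest array for 10 of the 33 carriers, or 30.3%, against 25% of all genes tested, and the highest for 6, or 18.2%, against 21.8%. WT 1 was the highest array for 9 of the 33, or 27.3%, against 16.4% of all genes tested.

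**Figure D3:**
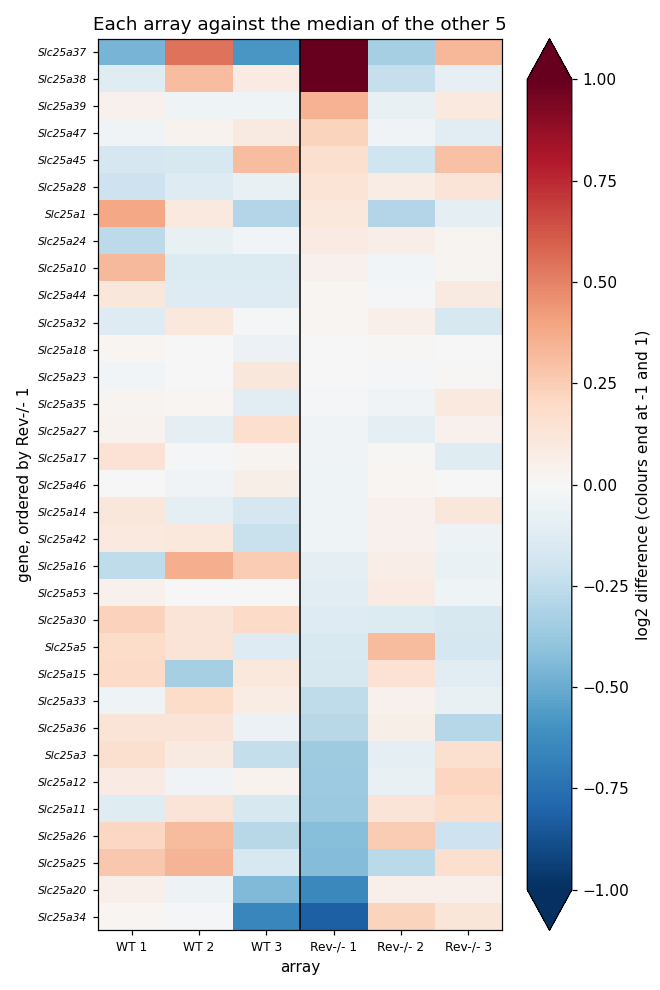
Log2 difference of each array (x axis) from the median of the other 5 arrays for the 33 Slc25a genes tested (y axis, ordered by Rev-/- 1), with red above and blue below 0 and colours ending at −1 and 1. Slc25a37 and Slc25a38 are the darkest red cells, at 2.19 and 1.01 on Rev-/- 1, and Slc25a34 and Slc25a20 the darkest blue of that array, at −0.82 and −0.64.

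Slc25a37, mitoferrin-1, which brings iron into the mitochondria of red cell precursors, differed more between arrays than any other carrier tested. It was at 8.08, 8.76 and 7.97 on WT 1 to 3 and at 10.41, 8.22 and 8.55 on Rev-/- 1 to 3. Rev-/- 1 was 2.19 above the median of the other 5 arrays, and the remaining Rev-/- arrays lay within the WT range. The log2 fold change between the labels was 0.79 (SE 0.54, adjusted p = 0.997 with limma), and it was 0.12 without Rev-/- 1. The second probe of the gene was also highest on Rev-/- 1, at 7.58 against 6.72 to 6.92 on the others.

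Slc25a38, the glycine carrier for the first step of haem synthesis, followed the same array. It was at 9.41, 9.76 and 9.54 on WT 1 to 3 and at 10.46, 9.31 and 9.45 on Rev-/- 1 to 3, and each of its 3 probes was highest on Rev-/- 1. The log2 fold change of 0.17 (SE 0.28) became −0.19 without that array, and it was −0.08 with the array medians aligned and −0.13 on the deposited values. Slc25a39, a glutathione carrier that is also needed for haem synthesis, was at 7.80, 7.76 and 7.76 on WT 1 to 3 and at 8.11, 7.73 and 7.86 on Rev-/- 1 to 3, again with Rev-/- 1 the highest, and its fold change of 0.12 was 0.018 without that array. Its relative Slc25a40 was at background throughout, with all 3 of its probes. Slc25a28, the mitoferrin of other tissues, was also highest on Rev-/- 1, by no more than 0.14 over the median of the other arrays.

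The same array had the highest level of red cell and neutrophil markers. Alas2, the enzyme of the first step of haem synthesis in red cells, was at 10.90 on Rev-/- 1 and from 9.06 to 9.91 on the other 5, and Slc4a1, the red cell anion exchanger, at 13.21 and from 8.72 to 11.18. WT 2 was second for Slc25a37, Slc25a38 and Slc4a1. Hba-a1, a haemoglobin chain, ran from 14.22 to 14.60 and was not highest on Rev-/- 1. It lay near the top of the scale, where quantile normalization gives every array the same few values, so its order of arrays says little. Epb4.2, a protein of the red cell membrane, was at background on all arrays. Of the 7 red cell markers listed, 4 had a probe and 3 were above background, with a score of 1.08 on Rev-/- 1 and from −0.76 to −0.01 on the other arrays. The 5 neutrophil markers, S100a8, S100a9, Ngp, Camp and Ltf, had a score of 2.76 on Rev-/- 1 and from −1.26 to 0.22 on the others, and the bone markers above background one of 2.81 and from −0.64 to −0.45. In RNA of whole samples, more cells of a type and more RNA per cell cannot be told apart. The part of these cells in the levels of Slc25a37 and Slc25a38 was not tested.

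**Figure D4:**
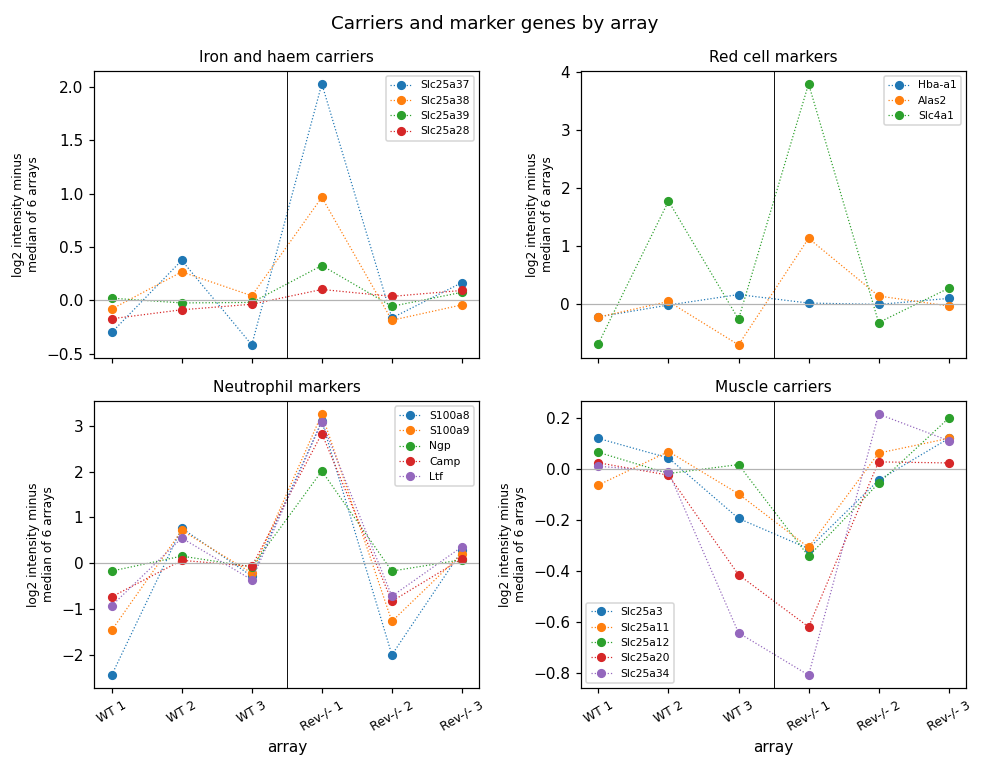
Log2 intensity relative to the median of the 6 arrays (y axes, with a scale of their own in each panel) on the 3 WT and 3 Rev-/- arrays (x axis) for carriers of iron and haem synthesis, red cell markers, neutrophil markers and carriers of muscle mitochondria, where dotted lines only join the points of a gene. Slc25a37, Slc25a38, Alas2, Slc4a1 and the neutrophil genes peak on Rev-/- 1. The 5 muscle carriers drawn have their lowest point there, unlike Slc25a4 and Slc25a5, which are not drawn. Carriers of other roles, such as Slc25a25 and Slc25a26, also have their lowest value there and are not drawn.

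Carriers that moved the other way, with their lowest value on Rev-/- 1, were 10 of the 33 tested, or 30.3%, against 25% of all genes tested. They included carriers of muscle mitochondria and of other roles. Slc25a34 and Slc25a20 were 0.82 and 0.64 below the median of the other 5 arrays, and Slc25a3, Slc25a11 and Slc25a12 also had their lowest value there. So had Slc25a25 and Slc25a26, each at −0.43 from that median, and Slc25a33, Slc25a46 and Slc25a53. The low values on Rev-/- 1 were thus not particular to carriers of muscle. The ADP/ATP carriers did not have their lowest value there. Slc25a4, which lay near background, was lowest on WT 3, and Slc25a5 on Rev-/- 3, at 12.04 against 12.06 on Rev-/- 1. WT 3 was the next lowest array for Slc25a34, Slc25a20 and Slc25a3. The 3 probes of Slc25a11, both probes of Slc25a12 and both kept probes of Slc25a20 were lowest on Rev-/- 1. The second kept probe of Slc25a3 was lowest on WT 1, at 9.46 against 9.54 on Rev-/- 1, and that of Slc25a34, close to background, was lowest on WT 2. Between the labels Slc25a20 differed by −0.05 (SE 0.20), and by 0.16 without Rev-/- 1. Of the 6 measured genes of differentiated muscle, Ckm and Tnnt3, a fast troponin, were also lowest on Rev-/- 1, at 13.88 and 13.68. Mylpf, a fast myosin light chain, Myh8, the perinatal myosin, Acta1 and Actn3 were not. Acta1 was lowest on WT 1 and Actn3 on Rev-/- 2, and the score of the 6 genes on Rev-/- 1 was 0.0003. Most of these genes lay near the top of the scale, where quantile normalization gives every array the same few values. Acta1 on WT 1 and Mylpf on WT 3, for example, were both at 14.305. The score thus cannot show whether the muscle content of the arrays was even.

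Other genes of mitochondrial transport were read from a list of 36, of which 28 had a probe outside the family as counted here, 2 were carriers already counted under newer symbols and 26 were tested. Of the 26, 0 were called with limma. Before adjustment 2 lower and 0 higher genes had a p of 0.05 or less, as did 1.94% and 1.24% of all genes tested. Timm8a1, a chaperone of the intermembrane space that guides carriers and other membrane proteins, was at 9.42, 9.56 and 9.30 on WT 1 to 3 and at 9.06, 9.22 and 9.18 on Rev-/- 1 to 3, a log2 fold change of −0.28 (SE 0.08) with no overlap between the labels. Sfxn4, a sideroflexin of the inner membrane, was at 8.11, 8.0 and 7.96 on WT 1 to 3 and at 7.70, 7.79 and 7.93 on Rev-/- 1 to 3, a difference of −0.22 (SE 0.08), also without overlap. Sfxn2 and Sfxn5, other sideroflexins, differed by 0.11 and −0.09 without overlap, which made 4 of the 26 genes, or 15.4%, against 8.1% of all genes tested. Both were near-ties, with WT 1 at 7.478 and Rev-/- 2 at 7.481 for Sfxn2. For Sfxn5, WT 2 was at 6.73775 and Rev-/- 3 at 6.73745. Sfxn5 was above background on 3 WT arrays and 1 Rev-/- array. It thus passed the filter through the WT group, and its lack of overlap is no support for a difference. With cyclic loess normalization 2 of the 26 did not overlap, or 7.69%, against 8.23% of all genes tested. The median of the 26 was −0.06, with 21 lower, or 80.8%, against 52.2% of all genes tested, and 14 were lower without Rev-/- 1, when 51.9% of all genes were.

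Single arrays also stood out in that list. The outer membrane channels Vdac1, Vdac2 and Vdac3, through which solutes reach the carriers, were all lowest on Rev-/- 1, at 13.71, 9.96 and 10.83 against 13.88 to 13.98, 10.14 to 10.66 and 11.04 to 11.39 on the other 5. Ucp1, the uncoupling carrier of brown fat that belongs to the Slc25 family under another symbol, was at 8.72 on WT 2 and from 6.60 to 7.30 on the others. Adipoq on WT 2, at 9.32, lay within the range of the other arrays. Ucp3, the uncoupling relative of muscle, was at 7.68, 7.74 and 7.64 on WT 1 to 3 and at 7.23, 7.65 and 7.73 on Rev-/- 1 to 3, lowest on Rev-/- 1 as Slc25a34 and Slc25a20 were.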

How the data were processed

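RNA of 6 samples described as primary myoblasts was measured on 1 array each. The methods state that the authors read the arrays with BeadStudio, background-subtracted and quantile-normalized them with lumi and tested with limma. The deposited intensities are linear, with array medians from 98.4 to 107 and no common distribution. A second table with 12 columns of signals and detection p-values named by array position was not used, since nothing pairs positions with samples.

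The intensities of 45281 probes were quantile-normalized in R 4.3.3 (limma 3.58.1), then log2-transformed. Of these, 34885 probes had 1 gene symbol, 18 several and 10378 none. On each array the background limit was the 95th percentile of the dim-probe peak with its lower side mirrored, which 20713 to 21900 probes passed. Named probes past it on at least 3 arrays, 18133 in all, entered 1 limma fit (lmFit, eBayes) with no block, and p-values were adjusted by Benjamini-Hochberg over all of them, and each gene took its brightest kept probe. Signal over background and 3 arrays per label limit the precision. The steps were also run on simulated data with independent noise in each gene and no array that stood apart. That run therefore cannot show how they behave with an array such as Rev-/- 1.

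The members, gene lists and tests were chosen with earlier results of these data known. Values on every array were given for carriers of tissue-restricted lists, those without overlap, the 6 of smallest p, the 6 of widest range, those above background on 1 to 5 arrays, and Slc25a3, Slc25a4 and Slc25a5. Alternatives were other normalizations, background correction, filters, weights, priors, a replicate block, probe means, thresholds and leaving out each array.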

Additional observations from a re-analysis of the deposited data

How the results depend on the processing

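Under all 17 alternatives run, 0 carriers, 0 genes of the related list and 0 genes in all were called, and 27 or 28 carriers were above background on all arrays. With the array medians aligned and on the deposited values, which shift the median of all genes to −0.11 and −0.15, the carriers had median fold changes of −0.11 and −0.16 on the log2 scale, 6 and 7 without overlap and 6 and 9 at an unadjusted p of at most 0.05, and the related genes had a median of −0.26 and −0.31 with 11 and 13 at that p. Under these scalings 23.2% and 27.3% of all genes did not overlap and 19.3% and 23.1% reached that p. The count of carriers at that p was 1 with normexp, with the filter on all arrays and with the trend and robust prior, and 0 (without WT 2) to 3 (without Rev-/- 2) with single arrays left out. That of carriers without overlap ran from 4 to 9 with single arrays left out, the 9 without Rev-/- 2, when 14.5% to 21.5% of all genes did not overlap. The count of related genes at that p was 1 with array weights, the trend and robust prior, the replicate block or the mean of kept probes, and 0 (without WT 2) to 4 (without Rev-/- 3) with single arrays left out. With the medians aligned and on the deposited values the sign turned for Slc25a28 (−0.060 and −0.11), Slc25a38 (−0.083 and −0.13) and Slc25a34 (−0.11 and −0.16), and with array weights for Slc25a20 (0.038). Without single arrays the fold change ran from −0.19 to 0.38 for Slc25a38, from −0.16 to 0.38 for Slc25a34, from −0.19 to 0.16 for Slc25a20 and from −0.27 to 0.018 for Slc25a1, with a turned sign without Rev-/- 1 in Slc25a38 and Slc25a20, without WT 3, Rev-/- 2 or Rev-/- 3 in Slc25a34, and without WT 1 in Slc25a1. Slc25a20 also turned without WT 1 and without WT 2. Slc25a30 was not tested with the filter on all arrays or without a WT array. The causes were not tested. Same-numbered arrays deviated with correlations of −0.17, 0.12 and 0.05. These cannot tell whether the numbers mark pairs, since differently numbered arrays were not set beside them. The replicate block changed no call.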
